A study of Mus musculus with 15 samples.

Results

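The transferrin receptor gene Tfrc and 9 other genes that carry iron into, through and out of cells were followed across 15 cultures. The 10 genes were chosen by symbol (Tfrc, Trf, Steap3, Slc11a2, Slc40a1, Fth1, Ftl1, Ncoa4, Aco1 and Ireb2) from the 35142 genes of the files. All 10 were present and all 10 were among the 15360 genes tested.

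RNA sequencing was done on cells dissociated from the cerebellum of C57BL/6 wild-type mouse pups aged P0 to P4 and kept in Neurobasal Plus medium with B27 Plus until day 14 in vitro. Cultures then stood for 18 h with recombinant murine IL-12p70 at 30 ng/ml or at 100 ng/ml, or received no IL-12 (unstimulated), with n = 5 cultures in each of the 3 groups. Every group shared the same strain, genotype and medium. The labels do not say whether the cultures of a group came from separate litters or dissociations, so the p-values measure the spread between these cultures, which may be technical.

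The labels name the cells neurons, and glial markers stood at higher summed levels than neuronal ones. In CPM (a gene's reads scaled to a common library size, here with the trimmed mean of M values, TMM), the summed markers of the unstimulated cultures ran from 487 to 561 for cerebellar neurons, from 6757 to 7523 for astrocytes, from 9141 to 12062 for the oligodendrocyte lineage and from 7008 to 9999 for microglia. Of the 15 neuron markers 14 passed the filter on low counts, and the one that did not, Pcp2, was at or near 0 in every group. The erythroid markers Hbb-bs and Hbb-bt were at 0. Between 25746096 and 38435850 reads per library were assigned to transcripts.

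Most cells take up iron when transferrin, the carrier protein encoded by Trf, binds the receptor encoded by Tfrc and is drawn into an endosome. There the iron is reduced by Steap3 and moved into the cytosol by the transporter encoded by Slc11a2, also called DMT1. Iron not used at once is stored in ferritin, a shell of heavy (Fth1) and light (Ftl1) chains, released from it with the help of the cargo receptor Ncoa4, or exported through ferroportin (Slc40a1). The iron regulatory proteins encoded by Aco1 and Ireb2 bind hairpins called iron-responsive elements (IREs). Such binding is known to protect an mRNA that carries them after the stop codon, as in Tfrc, and to block translation of one that carries the hairpin before the start codon, as in both ferritin chains. In the brain, oligodendrocytes and microglia are known for their high iron and ferritin content, and oligodendrocytes for making transferrin.

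The hairpins are the sequence feature by which these genes are classed, and the members that carry one are shown here. The transcripts were searched on their own strand for a bulged C, 5 stem bases, the loop CAGTGN and 5 stem bases able to pair with the first ones (Watson-Crick or G with T), that is for CNNNNNCAGTGN followed by the paired stem. Each site is printed 5′ to 3′ as 27 bases with 5 flanking bases on each side, from the GRCm39 genome. Capitals mark the bulged C and the loop. The Tfrc 3′ UTR held 4 sites, numbered from the stop codon, at chr16:32450038-32450064, chr16:32450417-32450443, chr16:32450482-32450508 and chr16:32450529-32450555 on the plus strand.
Tfrc site 1: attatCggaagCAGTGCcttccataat
Tfrc site 2: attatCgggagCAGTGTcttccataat
Tfrc site 3: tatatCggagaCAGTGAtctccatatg
Tfrc site 4: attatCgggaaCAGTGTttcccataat
The 5′ UTRs of Fth1 (chr19:9960097-9960123, plus strand), Ftl1 (chr7:45109204-45109230, minus strand) and Slc40a1 (chr1:45964626-45964652, minus strand) held 1 site each.
Fth1: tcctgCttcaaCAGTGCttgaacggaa
Ftl1: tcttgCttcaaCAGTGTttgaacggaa
Slc40a1: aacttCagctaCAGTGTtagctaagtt
In Slc11a2 a site with 4 of the 5 stem pairs lay in the 3′ UTR of the transcript Slc11a2-205 (chr15:100293035-100293061, minus strand).
Slc11a2: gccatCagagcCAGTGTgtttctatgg
With 5 of 5 pairs the motif was found in the 5′ UTR of 0.166% of the 21085 genes that have one and in the 3′ UTR of 0.758% of 20988. With at least 4 of 5 pairs these shares were 1.23% and 5.47%. Ireb2, Aco1, Trf, Steap3 and Ncoa4 held no match in their UTRs, which says only that these letters were not there.

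With IL-12 at 100 ng/ml 5 of the 10 genes changed and with 30 ng/ml 2 of the 10. Tfrc fell and Steap3 rose at both concentrations, and Fth1, Ftl1 and Slc11a2 rose at 100 ng/ml. A change was called at a false discovery rate (FDR) under 0.05 in edgeR's quasi-likelihood test over all 15360 genes. At 100 ng/ml 9.77% of all genes tested passed (5.83% higher, 3.93% lower), against 4 members higher and 1 lower. At 30 ng/ml 7.87% passed (4.16% higher, 3.71% lower), against 1 member higher and 1 lower. The 5 cultures of a stimulated group lay wholly apart from the 5 unstimulated cultures for 3 members at 100 ng/ml (Tfrc, Fth1 and Steap3), where this held for 7.17% of all genes, and for 2 members at 30 ng/ml (Tfrc and Steap3), where it held for 8.89%. Over the 10 members the median log2 fold change was 0.00 for 100 ng/ml and -0.01 for 30 ng/ml, beside 0.00 and 0.00 over all genes tested. The 2 concentrations share the unstimulated cultures, so their values are set side by side and are not independent of each other. Leaving out 1 culture at a time left 4 to 6 members called at 100 ng/ml and 2 to 4 at 30 ng/ml.

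**Figure D1:**
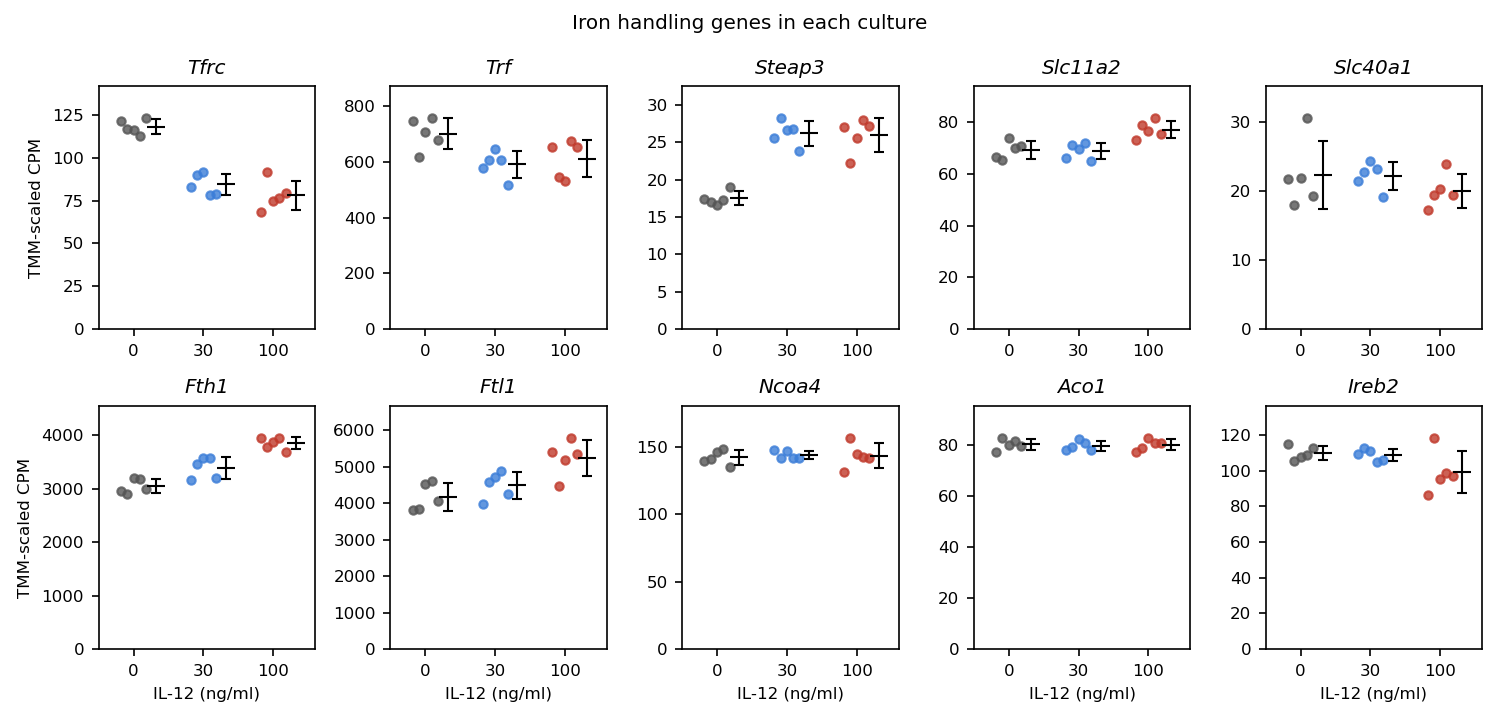
TMM-scaled CPM of the 10 genes (vertical axes, each from 0) in the unstimulated cultures (0) and those with 30 or 100 ng/ml IL-12 (horizontal axes). Each point is 1 culture, and the black line with its bar is the mean ± SD of 5 cultures. The Tfrc points of both stimulated groups lie under all unstimulated points, and the Steap3 points lie above them.

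Tfrc, the receptor that takes up transferrin-bound iron, is a gene of the plus strand at chr16:32427556-32451612 (GRCm39). Its level was 122, 117, 116, 113 and 123 CPM in the 5 unstimulated cultures. With 30 ng/ml it was 82.7, 89.9, 92.0, 78.5 and 79.0 CPM, and at 100 ng/ml 68.4, 91.4, 74.6, 76.3 and 79.4 CPM. Every stimulated culture was below every unstimulated one, while the 2 stimulated groups overlapped. The mean fell from 118 ± 4.36 CPM (SD, n = 5) to 84.4 ± 6.21 and 78.0 ± 8.50 CPM. The log2 fold change was -0.48 ± 0.06 (SE) at 30 ng/ml (FDR = 0.00046, edgeR) and -0.60 ± 0.07 at 100 ng/ml (FDR = 2.2e-05), or 0.715 and 0.660 times the unstimulated level. Between 100 and 30 ng/ml Tfrc differed by -0.11 ± 0.07 on the log2 scale (FDR = 0.49), which is not past the threshold. In 24 of 24 alternative settings the fall was called at both concentrations. Culture 2 of the 100 ng/ml group had the highest Tfrc of its group, and without it the log2 fold change was -0.66. Of the 7 Tfrc transcripts, Tfrc-201, which carries the 4 sites printed above, held 99.0%, 99.3% and 99.0% of the gene's estimated reads in the unstimulated, 30 ng/ml and 100 ng/ml cultures.

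In these bulk cultures fewer cells of a type and less RNA per cell cannot be told apart. The counts of markers called stand beside 9.77% of all genes tested at 100 ng/ml and 7.87% at 30 ng/ml. Beside the fall of Tfrc, 10 of the 14 microglia markers tested fell at 30 ng/ml and 0 of 14 at 100 ng/ml (edgeR, with 2 at an unadjusted p under 0.05 and 0 by DESeq2), with summed levels of 5463 to 6961 and 6719 to 8866 CPM against 7008 to 9999 CPM unstimulated. Of the 12 oligodendrocyte lineage markers 3 fell at 100 ng/ml, Mbp and Mag among them, and 1 at 30 ng/ml (Cspg4), with sums over the list of 8119 to 9252 and 8349 to 10066 CPM against 9141 to 12062 CPM. Of the 12 proliferation genes 2 rose at 100 ng/ml (16.7%) and 1 at 30 ng/ml. With 30 ng/ml the share called was 8.33% both for proliferation and for the oligodendrocyte lineage, near that over all genes tested. Among the 11 astrocyte markers 1 rose and 1 fell at 100 ng/ml and 3 rose at 30 ng/ml. The summed astrocyte markers ran from 7484 to 8776 CPM with 30 ng/ml and from 7268 to 8185 CPM with 100 ng/ml, against 6757 to 7523 CPM unstimulated. Of the 14 cerebellar neuron markers tested, 1 rose (Tubb3) and 2 fell (Calb1 and Gad1) at 30 ng/ml, and Tubb3 rose and Calb1 fell at 100 ng/ml. Their median log2 fold change was -0.49 with 30 ng/ml, where 10 of 14 had an unadjusted p under 0.05, and -0.24 with 100 ng/ml, while their sums ran from 504 to 588 and from 502 to 581 CPM against 487 to 561 CPM. Of the 5 endothelial markers tested 1 fell at each concentration (Flt1), and the sums of that list ran from 66.5 to 89.8 and from 68.1 to 84.2 CPM against 82.3 to 124 CPM, with overlap. Fibroblast and meningeal markers rose at 100 ng/ml in 2 of 7 cases, with sums of 1207 to 1404 and 1423 to 1925 CPM against 1147 to 1585 CPM. Of the 4 choroid plexus markers tested, edgeR and DESeq2 called 0 at either concentration, with 1 at an unadjusted p under 0.05 at 100 ng/ml. Their median log2 fold change was -0.41 with 30 ng/ml and -0.56 with 100 ng/ml. The sums of that list ran from 99.4 to 355 and from 97.0 to 181 CPM against 137 to 339 CPM, with overlap. The part of these shifts in the members' results was not tested.

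Trf, which encodes transferrin (chr9:103081200-103107814, minus strand), had lower means in both stimulated groups and did not pass the test in either. It stood at 745, 618, 705, 758 and 679 CPM unstimulated, at 579, 606, 645, 606 and 518 CPM with 30 ng/ml and at 652, 546, 531, 676 and 654 CPM with 100 ng/ml. The lowest unstimulated culture fell within the range of both stimulated groups. For 30 ng/ml the log2 fold change was -0.25 ± 0.08 (FDR = 0.054). For 100 ng/ml it was -0.20 ± 0.08 (FDR = 0.11). The lower concentration passed in 7 of 24 alternatives, DESeq2 and the fit on only the groups compared among them. Taking the mean of both stimulated groups against the unstimulated one, Trf was lower by a log2 change of -0.22 ± 0.07 (FDR = 0.035), a call that was lost in 9 of 23 alternatives. The oligodendrocyte lineage sums are given above, and their part in the Trf values was not tested.

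Steap3, the ferrireductase of the endosome (chr1:120118487-120200435, minus strand), rose at both concentrations by like amounts. Its level was 17.5, 17.1, 16.6, 17.3 and 19.1 CPM unstimulated, 25.6, 28.3, 26.6, 26.8 and 23.8 CPM at 30 ng/ml, and 27.0, 22.2, 25.6, 28.0 and 27.2 CPM at 100 ng/ml. All 10 stimulated cultures were above all 5 unstimulated ones. With 30 ng/ml the rise was 0.58 ± 0.06 on the log2 scale (FDR = 6.6e-05), or 1.498-fold, and with 100 ng/ml 0.57 ± 0.06 (FDR = 3.1e-05), or 1.487-fold. Between the concentrations it differed by -0.01 ± 0.06 (FDR = 0.97). The rise was called in 24 of 24 alternatives at each concentration. It rests on 454 to 935 reads per library, the smallest number among the members with Slc40a1 (495 to 854).

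**Figure D2:**
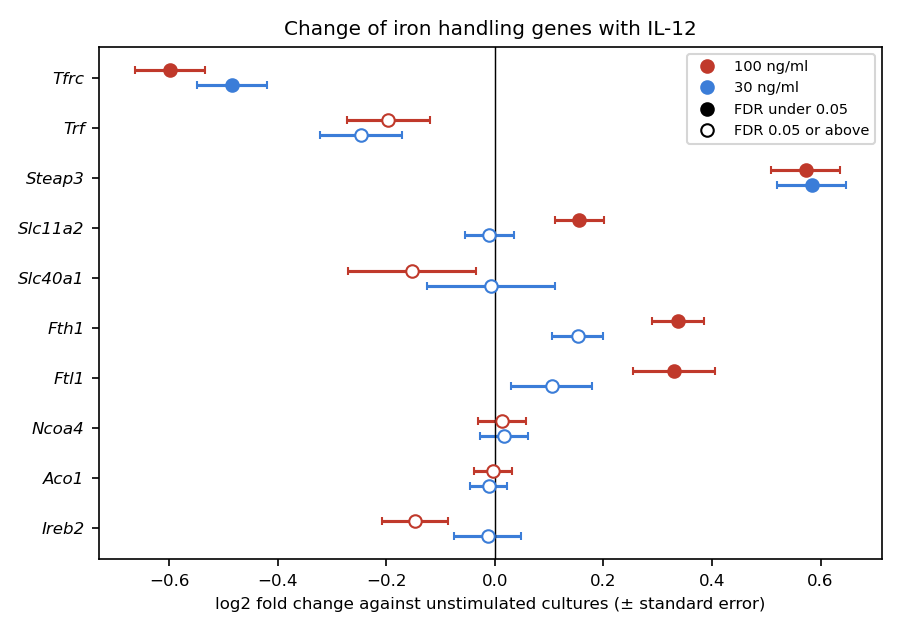
Log2 fold change of each gene (horizontal axis, with standard error bars) at 30 ng/ml (blue) and 100 ng/ml (red) against the unstimulated cultures. Filled points have an FDR under 0.05 and open points do not. Tfrc lies to the left and Steap3 to the right at both concentrations, and Fth1 and Ftl1 are filled at 100 ng/ml.

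Slc11a2, the divalent metal transporter (chr15:100285776-100322953, minus strand), was higher at 100 ng/ml by a small amount that depended on the processing. The unstimulated cultures held 66.3, 65.4, 73.7, 69.9 and 70.6 CPM, those at 30 ng/ml 65.9, 71.2, 69.6, 71.8 and 65.1 CPM, and those at 100 ng/ml 73.0, 78.7, 76.6, 81.6 and 75.4 CPM. The highest unstimulated culture was within the range of the 100 ng/ml group, which lay above all cultures at 30 ng/ml. Against the unstimulated cultures the log2 fold change was 0.16 ± 0.04 with 100 ng/ml (FDR = 0.037), while with 30 ng/ml it was -0.01 ± 0.04 (FDR = 0.93). The call at 100 ng/ml was lost in 10 of 24 alternatives. With the average transcript length of each library as an offset the log2 fold change was 0.04 (FDR = 0.82), and leaving out 1 culture lost the call in 7 of 15 cases.

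Slc11a2 is known for alternative 3′ ends with and without an IRE, so the share of its transcripts with the site printed above was compared. Of 8 Slc11a2 transcripts, Slc11a2-205 carried the site. It held 25.2% ± 2.92 (SD, n = 5) of the summed Slc11a2 TPM (a level scaled for transcript length and library size) unstimulated, 26.04% ± 2.09 at 30 ng/ml and 27.5% ± 3.26 at 100 ng/ml. The difference from the unstimulated cultures was 0.79 percentage points at 30 ng/ml and 2.27 points at 100 ng/ml, with exact two-sided permutation p = 0.62 and p = 0.27 (0.62 for each after Benjamini-Hochberg adjustment over the 3 pairs of groups). No difference was shown, and none was shown to be absent: over only the 4 transcripts with a stop codon the difference at 100 ng/ml was -2.21 points. By estimated reads Slc11a2-205 held 55.4%, 55.3% and 55.8% of the gene. The other main transcript, Slc11a2-201, which lacks the site, held 36.5%, 37.4% and 37.5%. The share of Slc11a2-205 is lower by TPM because transcripts with few reads count for more there. Slc11a2-207, for one, had 2.87% of the reads and a mean of 13.1 TPM unstimulated.

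**Figure D3:**
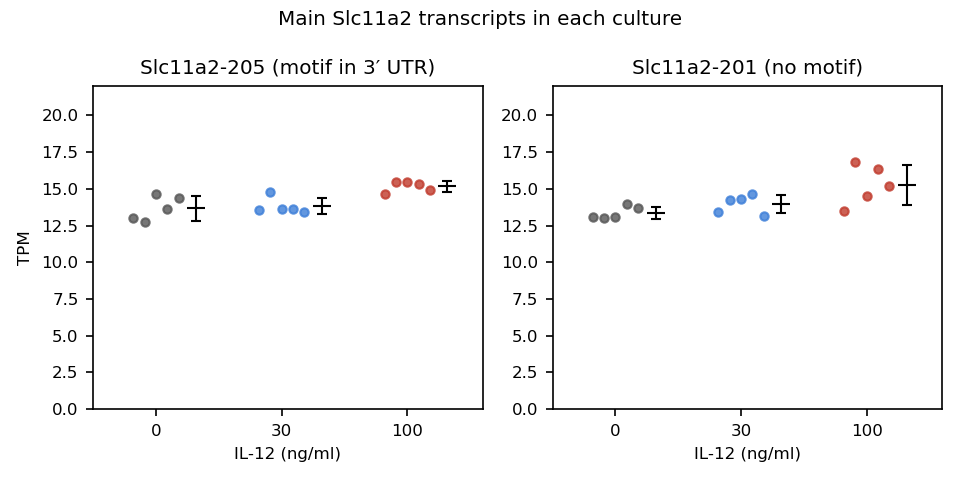
TPM (vertical axes, from 0) of the Slc11a2 transcripts with the motif in the 3′ UTR (Slc11a2-205, left) and without it (Slc11a2-201, right) by IL-12 concentration. Points are cultures and the black lines are means ± SD of 5 cultures. The ranges of all 3 groups overlap for both transcripts, which lie at similar levels. For Slc11a2-205 the overlap is narrow, with the lowest culture at 100 ng/ml at 14.66 TPM and the highest unstimulated one at 14.67 TPM.

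Slc40a1, the iron exporter (chr1:45947211-45965683, minus strand), was not called at either concentration. It ranged from 17.9 to 30.6 CPM unstimulated (median 21.7), from 19.0 to 24.4 CPM at 30 ng/ml and from 17.2 to 23.9 CPM in the 100 ng/ml group. The log2 fold changes of Slc40a1, with the lower concentration first here and in later pairs of values, were -0.01 ± 0.12 (FDR = 0.98) and -0.15 ± 0.12 (FDR = 0.45). Unstimulated culture 4 was the highest of all 15, and without it these values were 0.13 and -0.01.

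Both ferritin chains rose at 100 ng/ml, each 1.26-fold. Fth1, the heavy chain with the ferroxidase activity (chr19:9957911-9962462, plus strand), stood at 2954, 2908, 3203, 3189 and 2988 CPM unstimulated. At 30 ng/ml it stood at 3155, 3453, 3573, 3565 and 3195 CPM and at 100 ng/ml at 3955, 3776, 3878, 3956 and 3687 CPM. The 100 ng/ml cultures lay above those of both other groups, which overlapped with each other. Fth1 rose by 0.34 ± 0.05 on the log2 scale (FDR = 0.00027) at 100 ng/ml, and the value was 0.15 ± 0.05 (FDR = 0.056) at 30 ng/ml. The call at 100 ng/ml held in 24 of 24 alternatives. For 30 ng/ml 6 of 24 took Fth1 past the threshold (DESeq2, FDR = 0.019).

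Ftl1, the light chain, which helps to form the iron core (chr7:45107367-45109308, minus strand), stood at 3812, 3849, 4529, 4619 and 4068 CPM unstimulated. In the 30 ng/ml group it stood at 3969.8, 4583, 4733, 4896 and 4266 CPM and in the 100 ng/ml group at 5418, 4473, 5179.7, 5802 and 5363 CPM. All but culture 2 of the 100 ng/ml group were above all unstimulated cultures. Ftl1 rose by 0.33 ± 0.08 on the log2 scale (FDR = 0.011) at 100 ng/ml, and the value at 30 ng/ml was 0.10 ± 0.07 (FDR = 0.44). The call at 100 ng/ml held in 24 of 24 alternatives, and without culture 2 of that group the log2 fold change was 0.38. Ferritin genes have near-identical copies with which the counting could split reads. The copy Ftl1-ps1 stood at 47.8, 52.0 and 55.7 CPM in the 3 groups and was not called at 100 ng/ml (log2 fold change 0.23, FDR = 0.60).

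The ratio of the 2 chains was alike in the 3 groups. Per transcript length Fth1 stood at 1.03 times Ftl1 in each of the unstimulated, 30 ng/ml and 100 ng/ml groups, with an SD over 5 cultures of 0.0697, 0.0582 and 0.128. Together they held 1.71% ± 0.0872 of all TPM in the unstimulated group, 1.89% ± 0.122 in the 30 ng/ml group and 2.15% ± 0.0521 in the 100 ng/ml group. Of the Fth1 reads 89.2% to 90.2% were assigned to Fth1-201, which carries the 5′ UTR site printed above, and of the Ftl1 reads over 99% to Ftl1-201. By TPM, Fth1-201 stood at 5819 and Ftl1-201 at 8416 in the unstimulated group. Fth1-206, with 9.76% of the Fth1 reads, stood at 2785 TPM there. The ratio of the 2 chains thus rests in part on the estimate for Fth1-206. The marker sums of the cell types are given above, and their part in the ferritin values was not tested.

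The storage gene Fth1 and the uptake gene Tfrc were set against each other in each culture. The TPM of Fth1 was 225 ± 18.1 times that of Tfrc in the unstimulated cultures, 349 ± 29.0 times at 30 ng/ml and 443 ± 52.4 times at 100 ng/ml (SD, n = 5). It ran from 209 to 248 in the unstimulated cultures and from 317 to 521 in the 10 stimulated ones. The 2 genes were chosen with their changes known, so this ratio is a description.

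**Figure D4:**
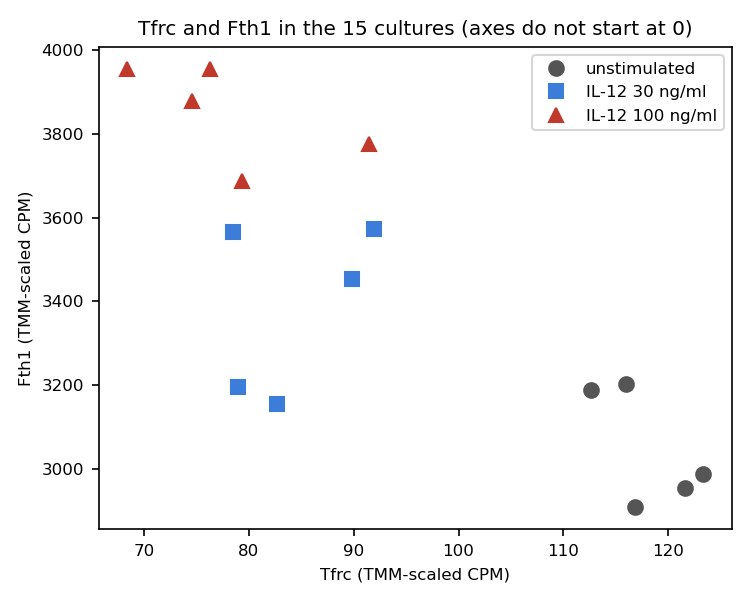
TMM-scaled CPM of Fth1 (vertical axis) against Tfrc (horizontal axis) in the 15 cultures, 1 point each, marked by group. Neither axis starts at 0. The unstimulated cultures lie at the lower right, those with 100 ng/ml at the upper left and those with 30 ng/ml at the left, with Fth1 between 3155 and 3573 CPM, overlapping the unstimulated cultures in Fth1 and not in Tfrc.

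Ncoa4, the receptor that delivers ferritin for breakdown (chr14:31881822-31902234, plus strand), was not called at either concentration. It ranged from 135 to 148 CPM unstimulated, from 141 to 148 CPM at 30 ng/ml and from 131 to 157 CPM in the 100 ng/ml group. Its log2 fold change was 0.02 ± 0.04 (FDR = 0.86) and 0.01 ± 0.04 (FDR = 0.89). The gene overlaps Timm23, which lies on the opposite strand and stood at 81.1 CPM, and whether the counting used strand was not given in the sources used here.

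Of the iron regulatory proteins, Aco1 (IRP1, which is a cytosolic aconitase when it holds an iron-sulfur cluster) ranged from 77.3 to 82.8 CPM unstimulated, from 77.8 to 82.3 CPM at 30 ng/ml and from 77.3 to 82.8 CPM in the 100 ng/ml group. Its log2 fold change was -0.01 ± 0.03 (FDR = 0.88) and -0.00 ± 0.03 (FDR = 0.97). Ireb2 (IRP2, which is degraded when iron is plentiful) stood at 115, 105, 108, 109 and 112 CPM unstimulated and at 109.5, 113, 111, 105 and 106 CPM at 30 ng/ml. At 100 ng/ml it stood at 86.5, 119, 95.5, 98.9 and 96.7 CPM. Culture 2 of the 100 ng/ml group was above all other cultures and the other 4 of that group were below all 10 cultures of the other groups. On the log2 scale Ireb2 differed by -0.01 ± 0.06 (FDR = 0.93) at 30 ng/ml and -0.15 ± 0.06 (FDR = 0.14) at 100 ng/ml. Without culture 2 it was -0.22 at 100 ng/ml and was called (FDR = 0.0031). That culture also had the highest Tfrc and the lowest Ftl1 and Steap3 of its group, and without it the number of genes called at 100 ng/ml was 2932 in place of 1500.

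Between 100 and 30 ng/ml 0 members were called, where 0.579% of all genes tested were. At an unadjusted p under 0.05 there were 4 (Fth1, Ftl1 and Slc11a2 higher and Ireb2 lower at 100 ng/ml), and DESeq2 called 1, Fth1 (FDR = 0.017). The 5 cultures at 100 ng/ml lay apart from the 5 at 30 ng/ml for 2 members (Fth1 and Slc11a2, both higher), which held for 2.97% of all genes. The rise of Fth1 from 30 to 100 ng/ml had a log2 fold change of 0.18 ± 0.05 (FDR = 0.10) and that of Ftl1 0.22 ± 0.07 (FDR = 0.22). The changes at 100 ng/ml that were not called at 30 ng/ml were thus not shown to differ between the concentrations. For the mean of both stimulated groups against the unstimulated one, 5 members were called, Fth1, Ftl1 and Steap3 higher and Tfrc and Trf lower, where 11.9% of all genes passed (6.71% higher, 5.22% lower). The call of Ftl1 in this comparison (log2 fold change 0.22 ± 0.07, FDR = 0.038) was lost in 11 of 23 alternatives.

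Compared per transcript length, the order of the members' levels shifted for Tfrc and Steap3. In the unstimulated cultures the mean TPM was 8659 for Fth1, 8461 for Ftl1, 698 for Trf, 83.4 for Ncoa4, 54.7 for Slc11a2, 38.5 for Tfrc, 34.0 for Aco1, 30.0 for Ireb2, 12.2 for Slc40a1 and 10.7 for Steap3. Neighbours in this order lay apart over the 5 cultures except Fth1 with Ftl1 and Slc40a1 with Steap3, whose ranges overlapped. Tfrc went from rank 6 to rank 8 at both concentrations, at 27.7 ± 2.31 TPM with 30 ng/ml and 24.8 ± 3.77 TPM with 100 ng/ml, where its range overlapped that of Ireb2. Steap3 went from rank 10 to rank 9, at 16.7 ± 1.30 and 15.8 ± 1.33 TPM. It lay apart from Slc40a1 (10.6 ± 1.11 TPM) at 100 ng/ml, and overlapped it at 30 ng/ml.

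The wider set of iron genes was read from 84 listed genes, of which 74 were tested. At 100 ng/ml 15 rose and 1 fell, or 21.6% of the 74, against 9.77% of all genes tested. With 30 ng/ml 7 rose and 1 fell, or 10.8% of the 74, closer to the 7.87% called among all genes. Over the 74 the median log2 fold change stood at 0.09 for the higher concentration and 0.04 for the lower, beside 0.00 and 0.00 over all genes tested. The number called at 100 ng/ml ran from 8 to 22 when 1 culture was left out, with the highest number again without culture 2 of the 100 ng/ml group. Between 100 and 30 ng/ml edgeR called 0 of the 74, with 11 at an unadjusted p under 0.05, and DESeq2 called 3.

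Among 8 tested genes of iron uptake, 3 rose at 100 ng/ml and 2 at 30 ng/ml. Steap4, a ferrireductase of the same family as Steap3, went from 17.3 to 30.7 CPM unstimulated to 34.2 to 50.4 CPM at 30 ng/ml and 46.0 to 62.3 CPM at 100 ng/ml, with no overlap with the unstimulated cultures (log2 fold change 0.68 ± 0.14, FDR = 0.0067, and 1.05 ± 0.14, FDR = 0.00016). Lcn2, a secreted protein that binds iron-loaded siderophores, went from 196 ± 41.8 to 280.04 ± 59.6 and 406 ± 66.3 CPM. Its log2 fold change of 1.05 ± 0.16 at 100 ng/ml passed (FDR = 0.00045) and that of 0.51 ± 0.15 at 30 ng/ml did not (FDR = 0.0501). Steap2, another ferrireductase of the family, rose at both concentrations, by 0.31 ± 0.07 and 0.26 ± 0.07 on the log2 scale, the second call lost in 5 of 24 alternatives.

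Of the 6 tested genes of iron export and hepcidin control, 2 rose and 1 fell at 100 ng/ml and 1 rose at 30 ng/ml. Hfe, which binds the transferrin receptor, rose at both (0.22 ± 0.05 and 0.30 ± 0.04, FDR = 0.0072 and 0.00049). Cp, the ferroxidase that works with ferroportin, rose at 100 ng/ml (0.41 ± 0.09, FDR = 0.0064), and Bmp6, a signal for hepcidin, fell at 100 ng/ml (-0.17 ± 0.05, FDR = 0.0499), a call lost in 17 of 24 alternatives. The hepcidin gene Hamp was near 0 in every culture and was not tested.

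Fbxl5, which senses iron and marks IRP2 for degradation, was the only one of 5 tested genes of iron regulatory protein control that changed. That is 20.0% of the class at each concentration, against 9.77% of all genes tested at 100 ng/ml and 7.87% at 30 ng/ml. Fbxl5 rose from 39.02 to 41.5 CPM unstimulated to 61.3 to 67.9 CPM at 30 ng/ml and 58.1 to 67.1 CPM at 100 ng/ml, with no overlap. Its log2 fold change was 0.64 ± 0.05 (FDR = 3.8e-07) and 0.58 ± 0.05 (FDR = 3.3e-07). Of the 4 tested genes of iron storage and chaperones outside the members, Pcbp4 rose at 30 ng/ml (0.25 ± 0.07, FDR = 0.036, lost in 10 of 24 alternatives) and edgeR called 0 at 100 ng/ml (1 at an unadjusted p under 0.05, 0 by DESeq2).

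Of 8 tested genes of heme synthesis 2 rose at 100 ng/ml, Alas1 (0.20 ± 0.06), the rate-limiting enzyme, and Alad (0.26 ± 0.08). These 2 calls were lost in 15 and 16 of 24 alternatives. With 30 ng/ml edgeR and DESeq2 called 0 of the 8, with 0 at an unadjusted p under 0.05. Of 10 tested genes of heme breakdown and transport 2 rose at 100 ng/ml, the biliverdin reductase Blvrb (0.29 ± 0.07) and the heme transporter Slc48a1 (0.16 ± 0.04), calls lost in 2 and 8 of 24 alternatives. That is 20.0% of the class, against 9.77% of all genes tested. Between 100 and 30 ng/ml edgeR called 0 of the 8 heme synthesis genes (2 at an unadjusted p under 0.05, 0 by DESeq2) and 0 of the 10 genes of heme breakdown and transport (4 at an unadjusted p under 0.05, 2 by DESeq2). With 30 ng/ml Lrp1, a receptor for heme bound to hemopexin, fell (-0.31 ± 0.07, FDR = 0.011). Of 22 tested genes of mitochondrial iron import and iron-sulfur assembly 4 rose at 100 ng/ml (18.2%) and 2 at 30 ng/ml (9.09%). The shares over all genes tested were 9.77% and 7.87%. Slc25a28, the mitochondrial iron importer mitoferrin 2, rose at both (0.30 ± 0.06 and 0.32 ± 0.06), as did Nfs1, the cysteine desulfurase (0.17 ± 0.04 and 0.15 ± 0.04, the second lost in 8 of 24 alternatives). Fdx2 and Fdxr rose at 100 ng/ml, with calls lost in 0 and 15 of 24 alternatives. Over the alternatives their log2 fold changes ran from 0.29 to 0.37 and from 0.19 to 0.32. Of 11 tested genes of cytosolic iron-sulfur assembly Nubp1 rose at 100 ng/ml (0.18 ± 0.05, FDR = 0.035, lost in 9 of 24 alternatives). That is 9.09% of the class, near the 9.77% over all genes tested. With 30 ng/ml edgeR and DESeq2 called 0 of the 11 (2 at an unadjusted p under 0.05).

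**Figure D5:**
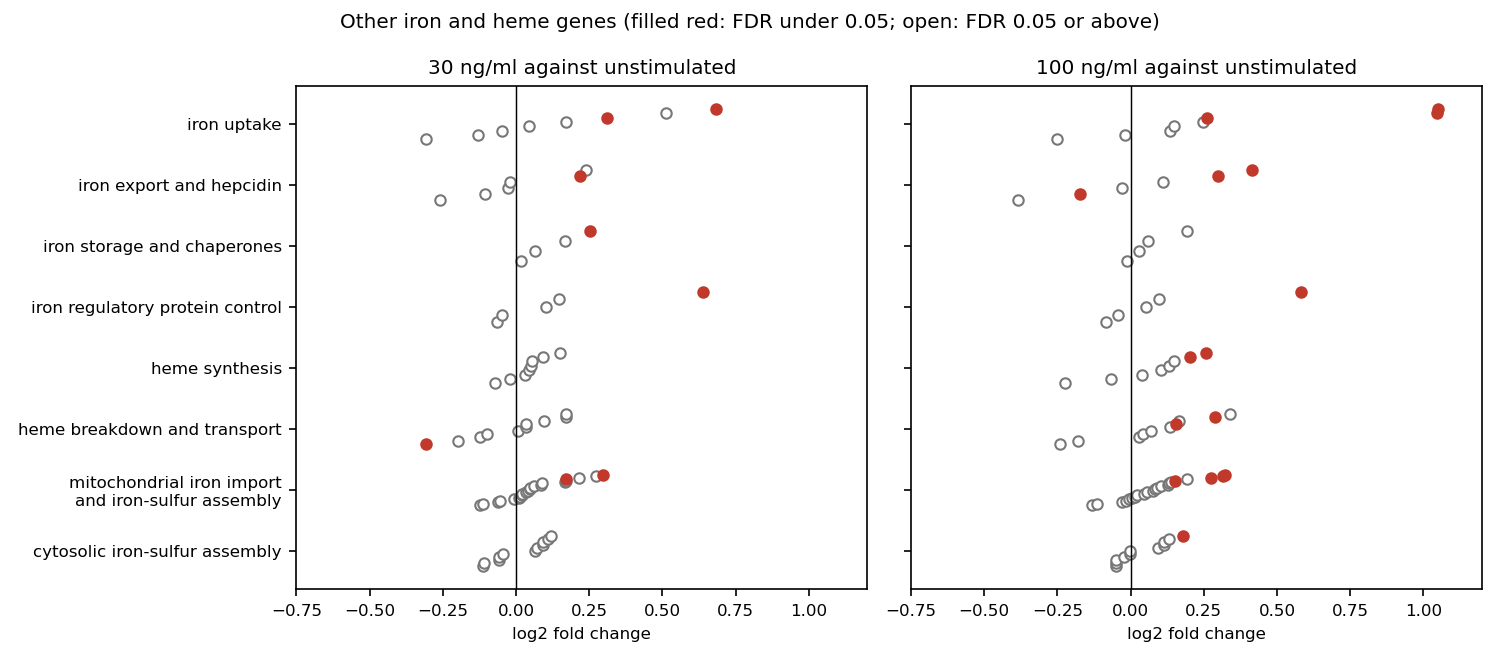
Log2 fold change (horizontal axes) of the 74 other iron genes tested, 1 point each, by group (rows), at 30 ng/ml (left) and 100 ng/ml (right) against the unstimulated cultures. Filled red points have an FDR under 0.05, with 8 at 30 ng/ml and 16 at 100 ng/ml. Steap4 and Lcn2 are the points farthest to the right in the uptake row, and Fbxl5 is the filled point of the iron regulatory protein row.

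The 5 protein-coding genes whose log2 CPM was most like that of Tfrc over the 15 cultures, of 10729 genes with a mean of at least 10 CPM, were Fip1l1 (Pearson r = 0.955), App (0.949), Scarb2 (0.943), Picalm (0.940) and Ero1a (0.939). The 15 points share the 3 groups, and with each group's mean taken out the values were 0.692, 0.814, 0.769, 0.734 and 0.643. Picalm, a clathrin adaptor of endocytosis, fell from 303 ± 17.5 to 243 ± 14.001 and 235 ± 22.03 CPM in the means of the 3 groups. App, the amyloid precursor gene, stood at 1136 ± 9.38, 1062 ± 13.7 and 1052 ± 38.5 CPM, and Scarb2, a lysosomal membrane protein, at 391 ± 9.62, 356 ± 12.9 and 342 ± 14.04 CPM. These genes were picked from all genes for their likeness, so the values are a description.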

How the data were processed

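Per the labels and the study's methods, the libraries were made from total RNA with a stranded mRNA kit. The submitters' processing notes name FastQC 0.10.0, STAR 2.7.8a, featureCounts and GRCm39. The deposited files hold, per transcript, an estimated count and a TPM value in the layout of a pseudoaligner, whose name, version and use of strand were not given in the sources used here. Estimated counts and TPM were summed by gene with GENCODE M39 (GRCm39), which matched 120537 of 121798 transcripts. Reads of unmatched transcripts, 0.677% to 0.712% of each library, were left out, and estimated counts were rounded.

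The 15360 genes that reached 1 CPM in 2 or more cultures were tested. TMM factors ran from 0.981 to 1.02. One fit of edgeR 4.0.16 (quasi-likelihood, R 4.3.3) over all 15 cultures gave every comparison, with Benjamini-Hochberg adjustment over all genes tested and an FDR under 0.05 as the threshold. The procedure was tested on simulated data. The share of Slc11a2 TPM used an exact permutation test, with scipy 1.17.1 for its Benjamini-Hochberg adjustment. The motif was to be searched with 5 of 5 stem pairs, which 0 Slc11a2 transcripts held, so the search with at least 4 of 5 is reported. The alternatives were DESeq2 1.42.0, the likelihood-ratio test, other scalings and filters, only the groups compared, the replicate number as a block, a length offset and each culture left out.

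The members, the iron and marker lists and the tests were chosen with earlier results of these data known. From the iron list the text names genes with an FDR under 0.05, up to 4 per group with the smallest FDR, and beside them the 5 genes most correlated with Tfrc. Lcn2 at 30 ng/ml and Hamp were named after their values were seen. Permutation and model p-values rest on n = 5 per group. Some genes of the lists are not reported here by name.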

Additional observations from a re-analysis of the deposited data

How the results depend on the processing

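The calls of Tfrc and Steap3 at both concentrations and of Fth1 and Ftl1 at 100 ng/ml held in 24 of 24 alternatives. Numbers of genes called moved by over 1.5 times as follows, and the cause was not tested. At 100 ng/ml 1500 became 946 with only the groups compared, 906 with the length offset and 940 to 2932 when 1 culture was left out, the highest without culture 2 of the 100 ng/ml group. At 30 ng/ml 1209 became 776 with the length offset and 673 to 1668 with 1 culture left out. For 100 against 30 ng/ml 89 became 216 with DESeq2, 253 with the likelihood-ratio test and 38 to 147 with 1 culture left out. For the mean of both 1832 became 1206 with the length offset and 1203 to 2837 with 1 culture left out. The members rest on 454 (Steap3) to 184301 (Ftl1) reads per library.

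Log2 fold changes that turned direction were small and not called. With library size alone they were 0.0048 for Aco1 at 100 ng/ml, 0.0087 for Aco1, 0.011 for Slc11a2, 0.015 for Slc40a1 and 0.0069 for Ireb2 at 30 ng/ml, -0.0039 for Aco1 between the concentrations and 0.0067 for Aco1 in the mean of both. With no filter and with the length offset Aco1 at 100 ng/ml was 0.0042 and 0.0028, and with the length offset Slc11a2 in the mean of both was -0.0089. With 1 culture left out, Aco1 ran from -0.016 to 0.0093 and Ncoa4 from -0.020 to 0.044 at 100 ng/ml. At 30 ng/ml Slc11a2 ran from -0.029 to 0.014, Slc40a1 from -0.075 to 0.13, Ireb2 from -0.028 to 0.0034 and Ncoa4 from -0.00026 to 0.033. Between the concentrations Aco1 ran from -0.0017 to 0.021, Steap3 from -0.043 to 0.039 and Ncoa4 from -0.038 to 0.027. In the mean of both Slc40a1 ran from -0.15 to 0.060, Aco1 from -0.021 to 0.0041 and Ncoa4 from -0.0025 to 0.031. The share of Slc11a2-205 differed by -0.16 points at 30 ng/ml by estimated counts, by -2.21 points at 100 ng/ml and -2.56 points between the concentrations over transcripts with a stop codon, and by -0.063 to 1.95 points at 30 ng/ml with 1 culture left out.

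Same-numbered cultures correlated at -0.183 to 0.264 in their deviations from the group means, with 4 of 15 pairs over 0.1, so the numbers were not taken to pair the cultures. With the replicate block 1169 genes were called at 100 ng/ml, 1081 at 30 ng/ml, 69 between the concentrations and 1601 for the mean of both. Under the block Fth1 at 30 ng/ml had an FDR of 0.045, and Slc40a1 a log2 fold change of 0.0084.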

Other observations

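Outside the 10 members, the same motif lay in the UTRs of other listed iron genes. With 5 of 5 stem pairs it was found in the 5′ UTR of Alas2, the erythroid enzyme of heme synthesis, and in the 3′ UTR of Bola3. With 4 of 5 pairs it was found in the 3′ UTR of Cdc14a, Cisd2 and Iba57. Cdc14a had log2 fold changes of 0.15 ± 0.07 and 0.05 ± 0.07 (FDR = 0.24 and 0.70, edgeR), with the lower concentration first. For Bola3, Cisd2 and Iba57 the FDR was between 0.21 and 0.996, and Alas2 was under the filter.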
